A study of Homo sapiens with 27 samples.

Results

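The 10 genes described here encode immune checkpoint and surface ligands of tumor cells: CD274, PDCD1LG2, CD276, CD47, NT5E, PVR, NECTIN2, LGALS9, ULBP2 and MICB. They were chosen by name, and each was matched to 1 of the 57165 rows of the deposited gene table, so that 10 of 10 were found. RNA was sequenced from SUM159 and MDA-MB-231, human triple-negative breast cancer cell lines of mesenchymal character, in 27 libraries that form 9 groups of 3. In each line the groups were untransduced wild type cells, cells carrying the pLV dCas9-KRAB lentivirus without a guide (No gRNA), and cells carrying it with gRNAs against the promoter of ZEB1, a transcriptional repressor of epithelial genes. dCas9-KRAB is a catalytically dead Cas9 joined to a repressor domain, which silences the promoter that the gRNA directs it to. In SUM159 the targeted groups were gRNA 4 alone and the pool of 4 gRNAs (All gRNA). In MDA-MB-231 the sample titles and the data columns of 6 libraries give opposite guides, so these are called set 1 (gRNA 4 by title, the pool by column) and set 2 (the pool by title, gRNA 4 by column), and neither is assigned to a guide. All transduced groups, No gRNA included, carried the vector, with dCas9-KRAB under a ubiquitin promoter, and were selected with puromycin, while wild type cells were not. The methods describe the replicates as individual clones, so the p-values measure the spread between these clones and libraries. Run 1 of the sequencer held the SUM159 groups and run 2 those of MDA-MB-231, and run 2 also held a second group of SUM159 wild type libraries, so line and run cannot be told apart for the transduced groups.

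The products of these genes act at the contact between a tumor cell and an immune cell. PD-L1 (CD274) and PD-L2 (PDCD1LG2) bind PD-1 on T cells and restrain them, B7-H3 (CD276) is a further B7 family protein, and CD47 signals to SIRPα on macrophages against engulfment. CD73 (NT5E) makes extracellular adenosine, which dampens T cells, PVR and NECTIN2 are ligands of the receptors TIGIT and DNAM-1, galectin-9 (LGALS9) binds TIM-3, and ULBP2 and MICB are stress-induced ligands of the activating receptor NKG2D. ZEB1 and the miR-200 family of microRNAs repress each other, and PD-L1 is known as a target of miR-200. MicroRNAs recognise the 3′ UTR of a transcript mainly through their seed, bases 2 to 8.

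The mature sequences of the 5 members of the miR-200 family (RefSeq, GRCh38.p14) are shown because their seeds define the sites that were looked for in the 10 transcripts. The seed is in capitals, and the family falls into a group with the seed AACACUG and a group with the seed AAUACUG.
miR-200a-3p: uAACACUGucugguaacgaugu
miR-141-3p: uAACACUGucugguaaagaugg
miR-200b-3p: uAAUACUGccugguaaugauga
miR-200c-3p: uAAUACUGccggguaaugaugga
miR-429: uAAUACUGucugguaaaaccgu

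Among the canonical 3′ UTRs of the 10 genes (GENCODE v44), the complement of the first seed, CAGTGTT, was present in 2, CD274 and CD47, and the complement of the second, CAGTATT, in CD274. Of all 19229 protein-coding 3′ UTRs, 18.3% held CAGTGTT and 16.2% held CAGTATT. The 3′ UTR of CD274 is 2692 bases long and had 3 matches to CAGTGTT, at positions 418, 1188 and 2387, and 1 to CAGTATT at position 434. That of CD47 is 4197 bases long and had 4 matches to CAGTGTT, and the other 8 genes had no match to either. The windows of 30 bases around the CD274 matches and the first CD47 match are given 5′ to 3′ with the matching bases in capitals. A match is a description of the letters only.
CD274 418: gactgagagtctCAGTGTTggaacgggaca
CD274 434: gttggaacgggaCAGTATTtatgtatgagt
CD274 1188: ggaaaacccgagCAGTGTTgccaagaggag
CD274 2387: taattggtgtgaCAGTGTTctttgtgtgaa
CD47 928: ggcaaaaatctaCAGTGTTtcttcacttct

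Promoter windows, from 250 bases before to 50 after the start site, were available from RefSeq for 9 of the 10 genes. They were searched on both strands for CACCTG, the core that ZEB1 binds, and for TTTCNNTTTC, the core of the interferon response element. CACCTG was in the windows of PVR and MICB, against 20.6% of 35116 windows of all genes, and TTTCNNTTTC in those of CD274 and LGALS9, against 3.57%. The CD274 window held 2 overlapping matches. The stretches around the matches of CD274, PVR and MICB are printed on the plus strand of GRCh38.p14 with the match in capitals, which for MICB lies on the minus strand and so reads CAGGTG.
CD274, chr9:5450327-5450356: tgacatgTTTCACTTTCTGTTTCatttcta
PVR, chr19:44643711-44643740: cctccgtttcctCACCTGgaatgtgggcga
MICB, chr6:31498094-31498123: ctgagcggggcgCAGGTGactaaatttcga

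Libraries held between 15461200 and 21473757 estimated counts, and levels are given as CPM, counts scaled to the size of the library, after TMM scaling, which sets libraries to a common basis by the bulk of their genes. ZEB1, the targeted gene, was at 70.7, 77.3 and 73.3 CPM in SUM159 No gRNA, 4.56, 3.25 and 2.57 CPM with gRNA 4 and 0.811, 0.375 and 1.02 CPM with the pool. Its level in MDA-MB-231 was 104, 122 and 104 CPM without a guide, against 4.75, 5.51 and 5.74 CPM for set 1 and 4.93, 3.70 and 5.43 CPM for set 2, so that every targeted library lay far below its control. Of the markers of the triple-negative label, ESR1 and PGR stayed under 1 CPM in all 27 libraries, and ERBB2 was between 38.1 and 72.1 CPM. Of 15 leukocyte markers, 8 were under 1 CPM in every library, PTPRC (CD45) included, and the summed level of the list lay between 14.1 and 198.3 CPM, with CD68 the highest of its genes in every group. The 6 genes of the miR-200 clusters and their host were at 0 in every library, and mature microRNAs were not measured here. In RNA from a whole culture, fewer cells of a type and less RNA per cell cannot be told apart, and protein at the cell surface was not measured here.

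**Figure D1:**
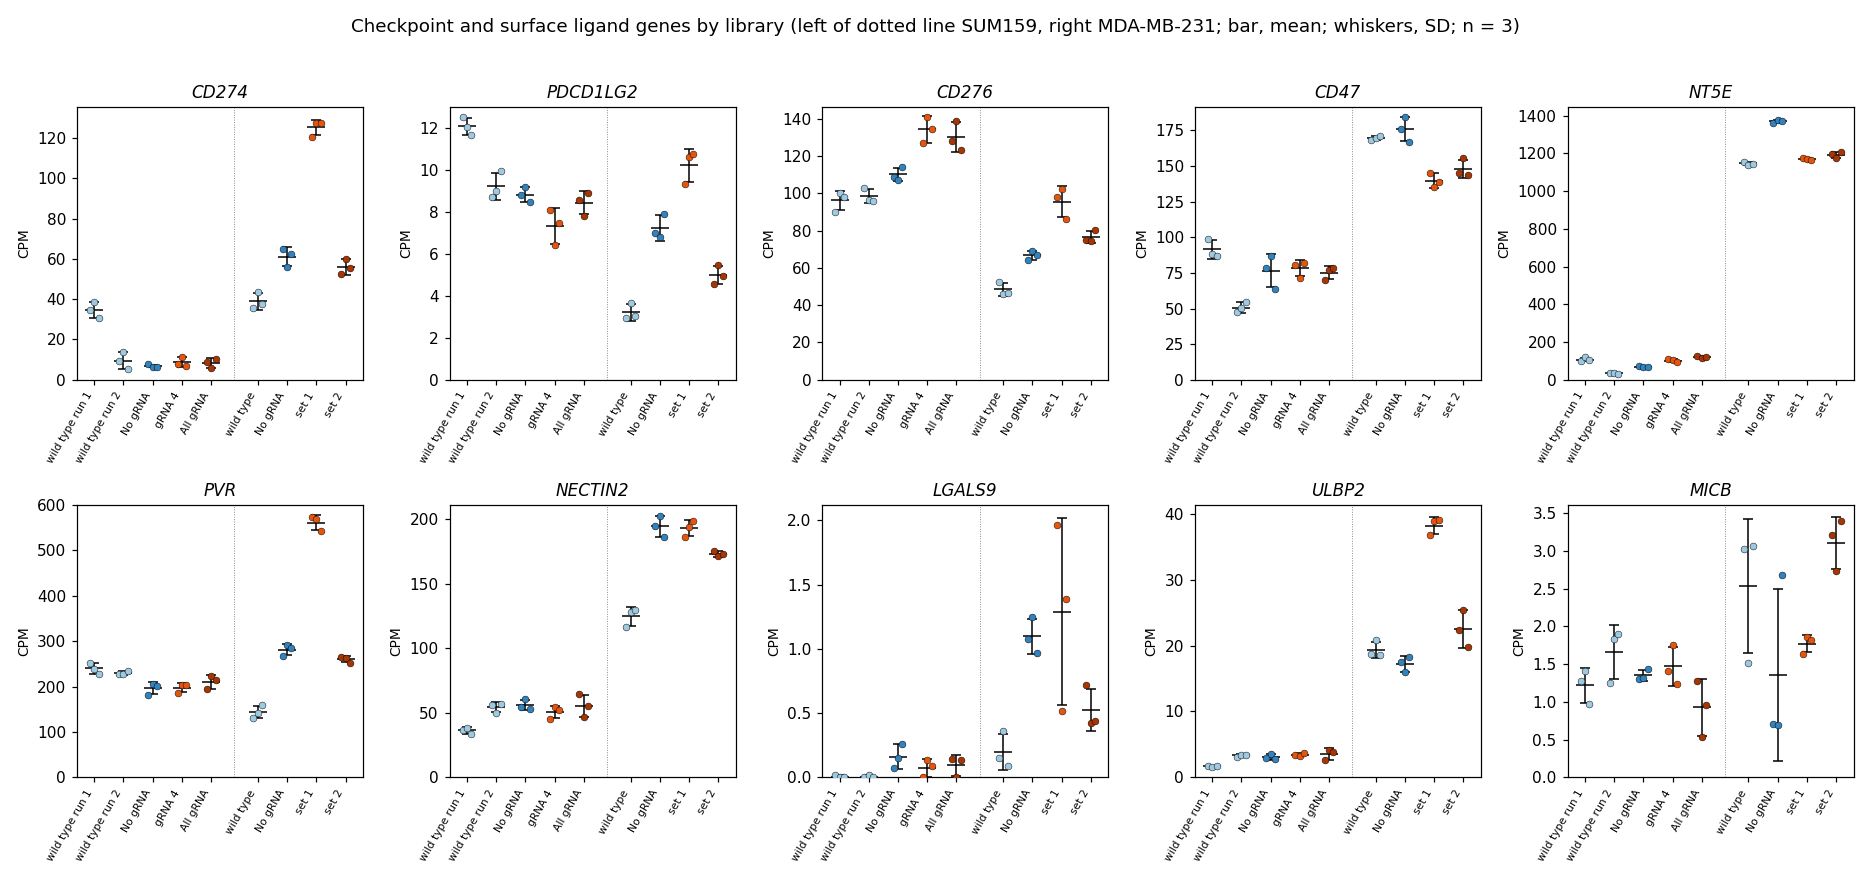
Level of each of the 10 genes in CPM (vertical axis, linear from 0) in the 27 libraries, by group (horizontal axis), with 1 point per library, a bar for the mean and whiskers for the SD (n = 3). CD274, PVR and ULBP2 were highest in MDA-MB-231 set 1, NT5E was at 1371 CPM on average in MDA-MB-231 No gRNA and at most 128 CPM in SUM159, and CD274 of SUM159 was highest in the wild type libraries of run 1.

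The first question is how much of each ligand the untouched lines make, for which the wild type libraries of run 2, the run that both lines share, were compared. Divided by the length of the canonical transcript, the order in SUM159 was PVR (39.6 CPM per kilobase), CD276 (29.9), NECTIN2 (20.2), CD47 (9.58), NT5E (9.33), PDCD1LG2 (3.80), CD274 (2.60), ULBP2 (2.49) and MICB (0.686). The libraries of CD47 and NT5E overlapped on this scale, as did those of CD274 with PDCD1LG2 and with ULBP2. In MDA-MB-231 the order was NT5E (322 CPM per kilobase), NECTIN2 (46.4), CD47 (32.1), PVR (24.8), CD276 (14.7), ULBP2 (14.5), CD274 (10.7), PDCD1LG2 (1.32) and MICB (1.05). Here CD276 overlapped with ULBP2, and PDCD1LG2 with MICB. LGALS9 was last in both lines, with 0.115 CPM per kilobase in MDA-MB-231 and 2 of 3 SUM159 libraries of run 2 at 0.

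**Figure D2:**
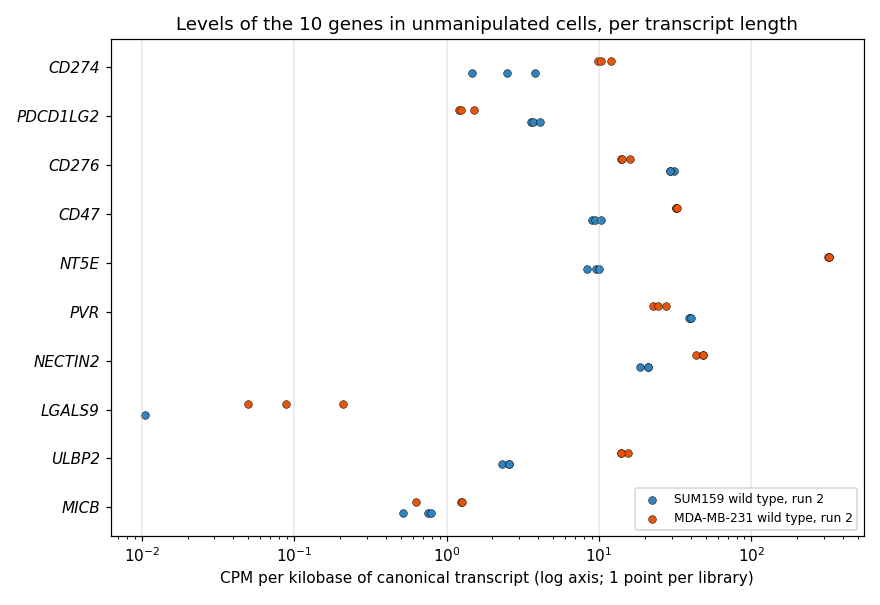
CPM per kilobase of canonical transcript (horizontal log axis) of the 10 genes in the wild type libraries of run 2, with 1 point per library and 3 libraries per line. NT5E stood at 322 in MDA-MB-231 and 9.33 in SUM159, and the 2 SUM159 libraries in which LGALS9 was at 0 are not drawn.

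Between the lines the ligands differed widely. Differences were tested with limma after voom, by TREAT against a fold change of 2 and by the moderated test against no change, with Benjamini-Hochberg adjusted p under 0.05 over all genes as the call. TREAT called 6 of the 9 genes tested, beside 29.1% of all genes, and the moderated test called 8, beside 75.5%. TREAT called 4 or 5 of them when any 1 library was left out, and 4 with DESeq2. On the log2 scale NT5E differed the most, at -5.11 for SUM159 over MDA-MB-231 (adjusted p = 8.74e-08 by TREAT), followed by ULBP2 (-2.54, adjusted p = 6.25e-05), CD274 (-2.15, adjusted p = 0.00869), CD47 (-1.75, adjusted p = 2.76e-05) and NECTIN2 (-1.20, adjusted p = 0.0477). PDCD1LG2 was the gene that TREAT called higher in SUM159 (1.51, adjusted p = 0.0232), and CD276 and PVR were higher there by the moderated test only. The wild type libraries of SUM159 in run 1 were not part of this comparison. Mean CD274 was 34.6 CPM there, beside 9.43 CPM in run 2 and 39.0 CPM in MDA-MB-231 wild type. CD47 (91.4, 50.7 and 170 CPM) and NT5E (107, 33.2 and 1146 CPM) were also nearer to MDA-MB-231 in run 1. ULBP2 (1.70, 3.32 and 19.4 CPM), NECTIN2 (36.4, 54.3 and 125 CPM) and PDCD1LG2 (12.1, 9.23 and 3.22 CPM) were further from it. Of the PD-1 ligands, CD274 was the higher per length in MDA-MB-231, while in SUM159 of run 2 the libraries of both overlapped. In SUM159 wild type of run 1 CD274 was the higher, with a mean of 9.53 against 4.97 CPM per kilobase. MICB was not called (-0.56 ± 0.36 SE), but was called without MDA-MB-231 wild type replicate 2 (adjusted p = 0.0194), and LGALS9 was too low to be tested.

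The main question of the design is what changed when ZEB1 was silenced. Each targeted group was compared with No gRNA of its line, and the 2 comparisons of a line share those controls. In SUM159, NT5E and CD276 were higher and the other 7 ligands tested were not called. In MDA-MB-231 set 1 the ligands CD274, PVR, ULBP2, CD276 and PDCD1LG2 rose and CD47 and NT5E fell, whereas set 2 had CD276, ULBP2 and MICB higher and PDCD1LG2, CD47, NT5E and NECTIN2 lower. No gene of the 10 changed by significantly more than 2-fold in any of these comparisons.

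By count, TREAT called 0 of the 9 genes tested in All gRNA and in gRNA 4 of SUM159, beside 0.396% and 0.39% of all genes, and 0 of the 10 tested in set 1 and set 2, beside 1.47% and 4.14%. None of these had an unadjusted TREAT p under 0.05, and glmTreat in edgeR and the thresholded test in DESeq2 also called 0. The moderated test called 2 of 9 in All gRNA, beside 10.8% of all genes, with 2 higher and 0 lower beside 5.93% and 4.89%. In gRNA 4 it called 2 of 9, beside 11%, with the same split beside 6.11% and 4.91%. In set 1 it called 7 of 10, beside 37.8%, of which 5 were higher and 2 lower, beside 20.4% and 17.3%. In set 2 it also called 7 of 10, beside 52.4%, with 3 higher and 4 lower beside 27.3% and 25.1%. Without No gRNA replicate 1 the count in set 2 was 4. The median log2 fold change of the tested ligands was 0.10 in All gRNA, 0.094 in gRNA 4, 0.51 in set 1 and -0.12 in set 2, where the median over all genes was 0.00013, -0.00067, -0.0080 and -0.012.

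**Figure D3:**
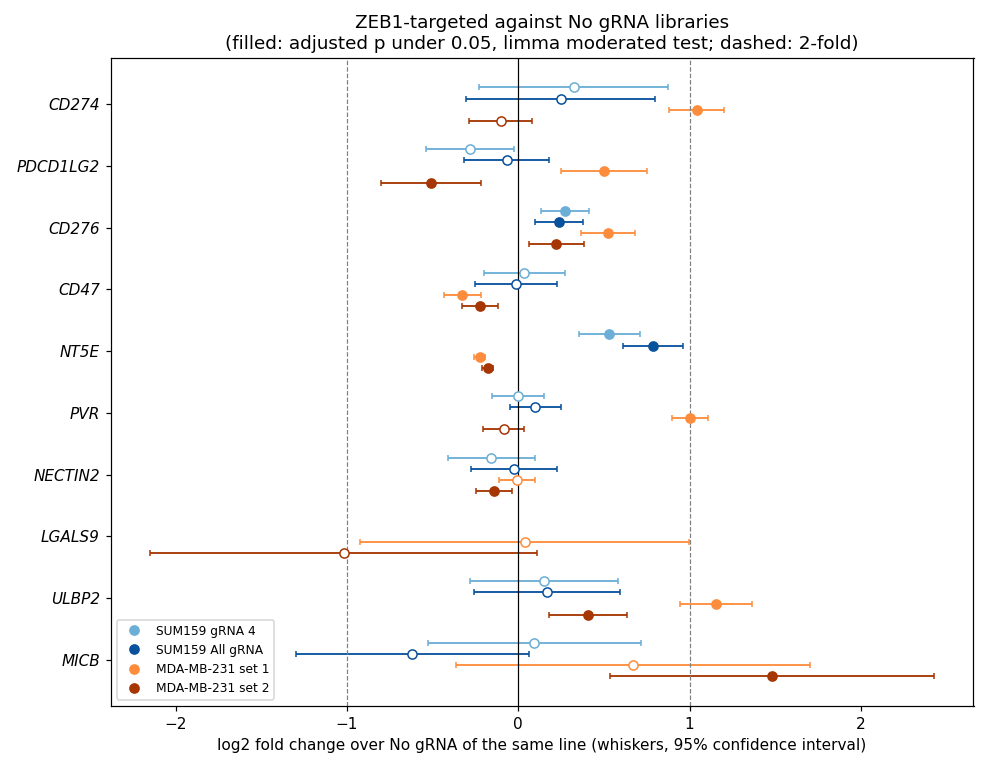
Log2 fold change of each of the 10 genes over No gRNA of the same line (horizontal axis) with 95% confidence intervals as whiskers, for the 4 targeted groups (colors); filled points passed the limma moderated test and dashed lines mark 2-fold. In set 1 CD274, PVR and ULBP2 lie at 1.04, 1.00 and 1.15, and in set 2 the same genes lie at -0.10, -0.084 and 0.41.

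CD274, on chromosome 9 from 5450503 to 5470566 (GRCh38, plus strand), encodes PD-L1. It stood at 65.1, 56.0 and 62.5 CPM in MDA-MB-231 No gRNA, 121, 128 and 128 CPM in set 1 and 52.4, 59.98 and 55.6 CPM in set 2. All set 1 libraries lay above both other groups, and set 2 overlapped with No gRNA. The log2 fold change was 1.04 ± 0.073 SE, adjusted p = 9.06e-07 in set 1 and -0.10 ± 0.083 SE, adjusted p = 0.324 in set 2, and set 2 was lower than set 1 by 1.14 (adjusted p = 2.32e-07). Against wild type set 2 was higher (0.49 ± 0.091 SE, adjusted p = 0.00144). In SUM159 the gene was far lower, at 7.64, 6.42 and 6.37 CPM in No gRNA, 8.03, 11.4 and 6.80 CPM with gRNA 4 and 8.74, 5.69 and 10.5 CPM in All gRNA. These groups overlapped, and the interval of the log2 fold change ran from -0.31 to 0.80 in All gRNA and from -0.23 to 0.87 in gRNA 4. For ZEB1 the difference of set 2 from set 1 was -0.18 ± 0.23 SE (adjusted p = 0.528), with an interval from -0.68 to 0.32.

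**Figure D4:**
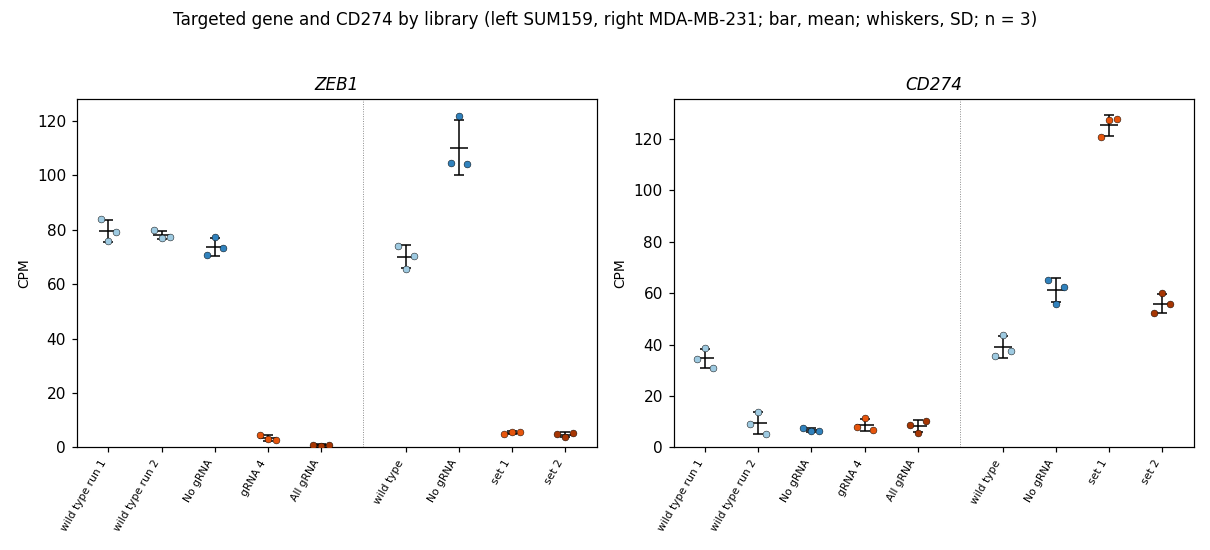
ZEB1 (left) and CD274 (right) in CPM (vertical axes, linear from 0) in the 27 libraries by group, with 1 point per library, a bar for the mean and whiskers for the SD (n = 3). Mean ZEB1 was 5.33 CPM in set 1 and 4.69 CPM in set 2, and mean CD274 was 125 and 56.0 CPM.

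PDCD1LG2 encodes PD-L2 and lies downstream of CD274 on the same strand of chromosome 9, from 5510531 to 5571282. In MDA-MB-231 it was at 7.01, 6.80 and 7.93 CPM without a guide, 9.34, 10.6 and 10.8 CPM for set 1 and 4.57, 5.47 and 4.97 CPM for set 2. The 3 groups did not overlap, with set 1 highest and set 2 lowest. It rose in set 1 (0.50 ± 0.11 SE, adjusted p = 0.00508) and fell in set 2 (-0.51 ± 0.13 SE, adjusted p = 0.00702). Against wild type both sets were higher (1.62 and 0.61, the latter with adjusted p = 0.0104), so the fall in set 2 held against No gRNA and not against wild type. In SUM159 the level lay between 6.44 and 9.21 CPM in the 9 transduced libraries, with -0.28 ± 0.12 (SE) in gRNA 4 and -0.067 ± 0.11 in All gRNA, neither called.

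Of the genes around CD274 and PDCD1LG2 on the short arm of chromosome 9, the moderated test called 4 higher and 0 lower of 13 tested in set 1, and 2 higher and 1 lower in set 2, beside 37.8% and 52.4% of all genes called in either direction. In SUM159 it called 0 of 16 in either targeted group, beside 10.8% of all genes in All gRNA and 11% in gRNA 4. TREAT called none of them in the 4 comparisons. It called 0.396% and 0.39% of all genes in All gRNA and gRNA 4, and 1.47% and 4.14% in set 1 and set 2. A list drawn up for genes that glycosylate, protect or degrade PD-L1 also held FBXO38. By the moderated test, 7 of 14 tested were higher and 2 lower in set 1, and 6 higher and 3 lower in set 2. Beside these stood 37.8% and 52.4% of all genes called in either direction. B3GNT3, a glycosyltransferase that modifies PD-L1, was the 1 gene of this list that TREAT called, with a mean of 10.6 CPM without a guide, 77.1 in set 1 (log2 fold change 2.87 ± 0.10 SE, adjusted p = 4.51e-07 by TREAT) and 51.2 in set 2 (log2 fold change 2.30 ± 0.11 SE, adjusted p = 7.13e-06 by TREAT). In SUM159 none of 13 tested genes of this list was called by either test. The shares of all genes there were 10.8% and 11% by the moderated test and 0.396% and 0.39% by TREAT.

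A further list joins genes of interferon signalling with NFKB1, RELA, MYC, HIF1A and EGFR, known to control CD274, and with NLRC5 and CIITA. It had 22 of 22 genes tested in each line. In set 1 the moderated test called 5 higher and 5 lower, beside 20.4% and 17.3% of all genes, with a median log2 fold change of -0.038. In set 2 it called 0 higher and 9 lower, beside 27.3% and 25.1%, with a median of -0.29. CIITA, the activator of MHC class II genes, was the 1 gene of this list called by TREAT, at 15.9 CPM in No gRNA and 2.78 CPM in set 1 (log2 fold change -2.51 ± 0.19 SE, adjusted p = 0.000401 by TREAT). In SUM159 2 were higher and 1 lower in All gRNA, beside 5.93% and 4.89%, and 3 higher and 1 lower in gRNA 4, beside 6.11% and 4.91%.

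CD276 (B7-H3), on chromosome 15 from 73683966 to 73714514 (GRCh38, plus strand), was higher in all 4 targeted groups. In SUM159 it was at 109, 107 and 114 CPM in No gRNA, 127, 141 and 135 CPM with gRNA 4 and 128, 139 and 124 CPM in All gRNA. Its level in MDA-MB-231 was 64.1, 69.0 and 67.0 CPM without a guide, 98.2, 102 and 86.5 CPM for set 1 and 74.8, 74.5 and 80.4 CPM for set 2. In each comparison all 3 targeted libraries lay above all 3 controls. The rises were small outside set 1, with 0.28 ± 0.064 SE, adjusted p = 0.0161 in gRNA 4, 0.24 ± 0.064 SE, adjusted p = 0.0335 in All gRNA, 0.52 ± 0.071 SE, adjusted p = 0.000149 in set 1 and 0.22 ± 0.073 SE, adjusted p = 0.0248 in set 2. The call was lost without any of 5 of the 6 libraries in All gRNA (all but All gRNA replicate 3, adjusted p between 0.057 and 0.115). It was lost without No gRNA replicate 1 or 2 or gRNA 4 replicate 2 or 3 in gRNA 4, between 0.0517 and 0.0661, and without No gRNA replicate 1 or 3 or set 2 replicate 3 in set 2, between 0.0524 and 0.0801.

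CD47, the signal against engulfment, lies on chromosome 3 from 108043091 to 108091862 (GRCh38, minus strand). It fell in MDA-MB-231 only slightly. The level was 176, 184 and 167 CPM without a guide, 145, 135 and 139 CPM for set 1 and 145, 156 and 144 CPM for set 2. Both targeted sets lay wholly below No gRNA and overlapped with each other. The log2 fold change was -0.33 ± 0.049 SE, adjusted p = 0.000337 in set 1 and -0.22 ± 0.049 SE, adjusted p = 0.00233 in set 2. In SUM159 the 9 transduced libraries lay between 64.0 and 87.0 CPM, with intervals from -0.25 to 0.23 in All gRNA and from -0.20 to 0.27 in gRNA 4.

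NT5E, which encodes the AMP-hydrolysing enzyme CD73, lies on chromosome 6 from 85449584 to 85495791 (GRCh38, plus strand). It moved in opposite directions in the lines. In SUM159 it was at 72.3, 67.3 and 69.8 CPM in No gRNA, 108, 103 and 94.4 CPM with gRNA 4 and 128, 114 and 119 CPM in All gRNA. Its level in MDA-MB-231 was 1363, 1377 and 1372 CPM without a guide, 1175, 1168 and 1164 CPM for set 1 and 1195, 1175 and 1205 CPM for set 2. No targeted library overlapped with the controls of its line. It rose in gRNA 4 (0.53 ± 0.082 SE, adjusted p = 0.00135) and All gRNA (0.79 ± 0.080 SE, adjusted p = 6.57e-05), and fell in set 1 (-0.23 ± 0.015 SE, adjusted p = 7.09e-07) and set 2 (-0.18 ± 0.015 SE, adjusted p = 1.76e-06). Against wild type of run 1 the SUM159 groups were not called (-0.090 ± 0.076 and 0.16 ± 0.074 SE), and No gRNA was itself below wild type. Against wild type the MDA-MB-231 sets were not called either (-0.021 ± 0.016 and 0.025 ± 0.016 SE).

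Of the other genes of adenosine turnover and sensing, 11 of 12 were tested in MDA-MB-231 and 6 in SUM159. The moderated test called 3 higher and 2 lower in set 1 and 2 higher and 3 lower in set 2, beside 37.8% and 52.4% of all genes called in either direction. It called 0 higher and 1 lower in each SUM159 group, beside 10.8% in All gRNA and 11% in gRNA 4. ENTPD2, which degrades extracellular ATP, had a mean of 0.247 CPM without a guide, 3.68 in set 1 and 1.68 in set 2, called by TREAT in both. ENPP1, which makes AMP from ATP outside the cell, had a mean of 99.3 CPM in No gRNA and 32.1 CPM in set 1 (log2 fold change -1.63 ± 0.076 SE, adjusted p = 0.000353 by TREAT). In set 2 against set 1 TREAT called 0 of the 11 genes tested, beside 3.07% of all genes.

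PVR and NECTIN2 encode the adhesion proteins CD155 and CD112, which engage TIGIT and DNAM-1, and PVR lies on chromosome 19 from 44643798 to 44666162 (GRCh38, plus strand). PVR was at 268, 292 and 285 CPM in MDA-MB-231 No gRNA, 574, 568 and 542 CPM in set 1 and 266, 264 and 253 CPM in set 2. All set 1 libraries lay far above the rest, and set 2 lay just below No gRNA without overlap. PVR rose in set 1 (1.00 ± 0.048 SE, adjusted p = 4.18e-08) and was not called in set 2 (-0.084 ± 0.055 SE, adjusted p = 0.222), and set 2 was lower than set 1 by 1.09 (adjusted p = 1.02e-08). Against wild type set 2 was higher (0.83 ± 0.062 SE, adjusted p = 1.69e-06). In SUM159 the 9 transduced libraries ran from 182 to 224 CPM, with -0.00069 ± 0.070 (SE) in gRNA 4 and 0.10 ± 0.069 in All gRNA. PVR is among the genes whose window held CACCTG. Of the 50-base stretches of its transcript, the length of a read, 35.7% also occurred in transcripts of other annotated genes, most of them in 1 gene model without a symbol.

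NECTIN2, on chromosome 19 from 44846175 to 44889223 (GRCh38, plus strand), was at 195, 203 and 186 CPM without a guide, 186, 194 and 199 CPM for set 1 and 176, 171 and 173 CPM for set 2. Set 1 overlapped with No gRNA and set 2 lay below it. The fall in set 2 was small (-0.14 ± 0.047 SE, adjusted p = 0.0254) and lost its call without any library but No gRNA replicate 3 (adjusted p between 0.0538 and 0.134), and set 1 was not called (-0.0078 ± 0.047 SE). Against wild type set 2 was higher (0.44 ± 0.052 SE, adjusted p = 5.32e-05), the opposite direction. In SUM159 the transduced libraries lay between 45.2 and 64.4 CPM and neither targeted group was called.

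LGALS9, on chromosome 17 from 27629798 to 27649560 (GRCh38, plus strand), was barely detected in SUM159, with at most 0.261 CPM in any of the 15 libraries, and was not tested there. In MDA-MB-231 it was at 1.08, 1.24 and 0.968 CPM without a guide, 1.96, 0.514 and 1.39 CPM for set 1 and 0.716, 0.424 and 0.440 CPM for set 2. Set 1 spread across No gRNA and set 2 lay below it, and neither was called (0.036 ± 0.44 and -1.02 ± 0.51 SE). Of its 50-base stretches 32.8% were shared with other genes, among them a readthrough gene model of the same locus.

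ULBP2 encodes a ligand of NKG2D that natural killer cells read and lies on chromosome 6 from 149942014 to 149949235 (GRCh38, plus strand). In MDA-MB-231 it was at 17.6, 15.9 and 18.3 CPM without a guide, 36.7, 38.8 and 39.0 CPM for set 1 and 22.4, 25.4 and 19.7 CPM for set 2, with all targeted libraries above the controls and set 1 above set 2. It rose in set 1 (1.15 ± 0.096 SE, adjusted p = 3.34e-06) and in set 2 (0.41 ± 0.10 SE, adjusted p = 0.00618). The set 2 rise was not called against wild type (0.18 ± 0.10 SE). In SUM159 the level was 2.58 to 4.16 CPM in the transduced libraries and not called. RAET1L, its neighbor in the same gene cluster, had a mean of 0.892 CPM without a guide, 11.2 for set 1 and 3.96 for set 2 (log2 fold change 3.64 ± 0.25 SE, adjusted p = 5.72e-05 by TREAT and log2 fold change 2.18 ± 0.27 SE, adjusted p = 0.0181 by TREAT). Of the 50-base stretches of ULBP2, 32.6% occurred in other genes, 382 of 419 such stretches in RAET1L, so the values of both are uncertain to that extent.

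MICB, the other NKG2D ligand, on chromosome 6 from 31494881 to 31511124 (GRCh38, plus strand), was low throughout. In MDA-MB-231 it was at 0.714, 0.696 and 2.68 CPM without a guide, 1.64, 1.85 and 1.82 CPM for set 1 and 3.21, 2.73 and 3.39 CPM for set 2. No gRNA replicate 3 stood apart from its group, and set 2 lay above all of it. MICB rose in set 2 (1.48 ± 0.43 SE, adjusted p = 0.013), a call lost without No gRNA replicate 1 (log2 fold change 1.18, adjusted p = 0.0642) or replicate 2 (1.17, adjusted p = 0.0659). In set 1 it was not called (0.67 ± 0.47 SE), but was called without No gRNA replicate 3 (1.30, adjusted p = 0.0407). Against wild type, set 2 overlapped and was not called (0.32 ± 0.36 SE, adjusted p = 0.524). In SUM159 all 9 transduced libraries were between 0.533 and 1.75 CPM.

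The wider list of 45 further ligands and other immune-modulating genes had 32 tested in each line. The moderated test called 5 higher and 16 lower in set 1, 6 higher and 19 lower in set 2, 4 higher and 4 lower in All gRNA, and 4 higher and 7 lower in gRNA 4. Of all genes 37.8%, 52.4%, 10.8% and 11% were called in these comparisons. Their median log2 fold change was -0.38 in set 1 and -0.46 in set 2. Besides RAET1L, TREAT called TNFSF18, which encodes the ligand of GITR (log2 fold change -2.53 ± 0.15 SE, adjusted p = 3.45e-05 by TREAT), ICOSLG, the ligand of ICOS (log2 fold change -1.75 ± 0.097 SE, adjusted p = 0.000316 by TREAT), and CD55, an inhibitor of complement (log2 fold change -1.68 ± 0.039 SE, adjusted p = 3.26e-07 by TREAT), all lower in set 2. In set 2 against set 1 TREAT called 0 higher and 2 lower of the 32 tested, beside 3.07% of all genes. Of 14 receptors for these ligands, 3 were tested in MDA-MB-231 and 4 in SUM159, and the moderated test called 1 lower in each set and 0 in SUM159.

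The sets also differed in markers that were not ligands. CD68, a lysosomal protein counted among the leukocyte markers, had a mean of 168 CPM without a guide, 157 for set 1 and 65.1 for set 2, and CD14 had 4.69, 0.904 and 0.860. The summed leukocyte list ran from 186.8 to 198.3 CPM without a guide, from 170.1 to 172.5 in set 1 and from 71.97 to 76.89 in set 2, with PTPRC at 0.161, 0.00904 and 0.194. The sum of 6 keratins ran from 1028 to 1067 CPM without a guide, from 1470 to 1563 in set 1 and from 2790 to 2922 in set 2. EPCAM, an epithelial adhesion protein, had 12.6, 290.0 and 380.2 CPM, and VIM, a mesenchymal filament, 2384, 1319 and 2508 CPM. Their part in the values of the ligands was not tested.

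The groups with gRNAs were also set against each other. In SUM159, All gRNA against gRNA 4 had 0 of 9 ligands called by TREAT, beside 0% of all genes, and 0 by the moderated test, beside 0.944%, where 2 had an unadjusted p under 0.05, and edgeR and DESeq2 called 0 as well. In MDA-MB-231, set 2 against set 1 had 0 of 10 called by TREAT, beside 3.07% of all genes, with 1 at an unadjusted p under 0.05, and 7 by the moderated test, beside 51.5%. Of these, 1 was higher and 6 lower in set 2, beside 25.2% and 26.3%. CD274 (-1.14), PVR (-1.09), PDCD1LG2 (-1.01) and ULBP2 (-0.75) were lower by the most, with CD276 (-0.30) and NECTIN2 (-0.13) also lower and NT5E higher by 0.046 on the log2 scale. NECTIN2 lost its call without any of the 6 libraries (adjusted p between 0.0575 and 0.13). NT5E lost it without set 1 replicate 3 or set 2 replicate 1 or 3, between 0.0776 and 0.106. CD47 gained a call without set 1 replicate 1 (adjusted p = 0.0363), and LGALS9 without set 1 replicate 2 (log2 fold change -1.60, adjusted p = 0.00545).

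Whether the effect of silencing differed between the lines was tested as an interaction over 24 libraries, as the mean of the 2 targeted groups over No gRNA in SUM159 minus the same in MDA-MB-231. TREAT called 0 of 10 ligands, beside 0.954% of all genes, none with an unadjusted p under 0.05, and edgeR and DESeq2 called 0. The moderated test called 4, beside 25.4%. NT5E differed by 0.88 ± 0.061 (SE, adjusted p = 1.3e-09), and CD47 by 0.31 ± 0.10 (adjusted p = 0.0265). Against wild type of its line, run 1 for SUM159, NT5E was not called in any targeted group. PVR (-0.39 ± 0.077, adjusted p = 0.000874) and ULBP2 (-0.60 ± 0.20, adjusted p = 0.0299) had the smaller mean log2 fold change in SUM159. The mean of MDA-MB-231 joins unlike sets for both, since PVR was at 1.00 in set 1 and -0.084 in set 2, beside -0.00069 in gRNA 4 and 0.10 in All gRNA, and ULBP2 at 1.15 and 0.41, beside 0.15 and 0.17. The call for CD47 was lost without SUM159 No gRNA replicate 3 or MDA-MB-231 No gRNA replicate 2 (adjusted p = 0.153 and 0.073). That for ULBP2 was lost without SUM159 No gRNA replicate 1 or 2, All gRNA replicate 1 or MDA-MB-231 No gRNA replicate 2, between 0.0504 and 0.129. CD274, for which set 1 and set 2 enter as their mean, was not called (-0.16 ± 0.22 SE). MICB was called without All gRNA replicate 1 (adjusted p = 0.0429) or MDA-MB-231 No gRNA replicate 3 (adjusted p = 0.00318) but not with all libraries (adjusted p = 0.0574).

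Cells with the vector but no guide also differed from wild type. For No gRNA of SUM159 against wild type of run 1, TREAT called 1 of 9, beside 1.53% of all genes, and the moderated test 8, beside 42.9%, with 3 higher and 5 lower beside 21% and 21.9%. CD274 fell from 34.5, 38.6 and 30.8 CPM in wild type to 7.64, 6.42 and 6.37 CPM (-2.35 ± 0.21 SE, adjusted p = 5.41e-06, adjusted p = 0.0033 by TREAT). The groups did not overlap. ULBP2 (0.85) and NECTIN2 (0.61) were higher and NT5E (-0.62), PDCD1LG2 (-0.46) and PVR (-0.30) lower. CD276 (0.19) and CD47 (-0.28) were also called, but CD276 lost its call without any library but wild type replicate 2, and CD47 without any but No gRNA replicate 2 (adjusted p up to 0.143 and 0.216).

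The 3 SUM159 wild type libraries of run 2 changed this picture. CD274 was at 9.08, 13.9 and 5.33 CPM there, all below run 1, and against these libraries No gRNA was not called for CD274 (log2 fold change -0.38, adjusted p = 0.389). NT5E was at 34.3, 35.6 and 29.8 CPM in run 2 against 100.3, 118 and 103 CPM in run 1, so No gRNA was lower than wild type of run 1 and higher than wild type of run 2 (1.07, adjusted p = 3.26e-06). CD47 turned in the same way (0.57, adjusted p = 0.00159). Between run 2 and run 1 of the same wild type line, TREAT called 1 of 9 ligands, beside 6.65% of all genes, and the moderated test 6, beside 62.1%. NT5E was lower in run 2 by 1.69 (adjusted p = 0.00448 by TREAT), CD274 by 1.97 (adjusted p = 0.000659 by the moderated test), CD47 by 0.85 and PDCD1LG2 by 0.39, and ULBP2 (0.96) and NECTIN2 (0.58) were higher. CD274 passed TREAT as well without run 2 replicate 2, and PDCD1LG2 lost its call without run 2 replicate 1 or 2 (adjusted p = 0.0591 and 0.0539). Run, culture and wild type stock cannot be told apart in this comparison.

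In MDA-MB-231, where wild type and No gRNA share a run, TREAT called 0 of 10, beside 3.6% of all genes, with 1 at an unadjusted p under 0.05 and 0 by edgeR and DESeq2, and the moderated test called 8, beside 53.8%, with 7 higher and 1 lower beside 26.2% and 27.6%. CD274 was at 35.6, 43.7 and 37.7 CPM in wild type and rose in No gRNA (0.60 ± 0.089 SE, adjusted p = 0.000156). PVR rose by 0.91 from 132, 141 and 159 CPM (adjusted p = 2.08e-07), and PDCD1LG2 by 1.11 from 2.94, 3.68 and 3.05 CPM (adjusted p = 5.66e-05). LGALS9 (2.44 ± 0.65 SE), NECTIN2 (0.59), CD276 (0.41) and NT5E (0.20) were also higher. Of these, LGALS9 was near the floor, with a mean of 3.43 estimated counts in wild type and 19.7 in No gRNA. MICB was lower (-1.16, adjusted p = 0.0443), a call lost without No gRNA replicate 1 or 2 or wild type replicate 1 or 3 (adjusted p between 0.114 and 0.188).

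Set against wild type in place of No gRNA, set 1 had 3 ligands called by TREAT, beside 8.42% of all genes, and set 2 had 0 of 10, beside 1.44%, with none at an unadjusted limma p under 0.05. The 3 in set 1 were PVR (1.92, adjusted p = 2.96e-07), CD274 (1.64, adjusted p = 0.000147) and PDCD1LG2 (1.62, adjusted p = 0.00943), so for these genes the step from wild type to No gRNA and the step from No gRNA to set 1 had the same direction. By the moderated test 8 were called in set 1 and 6 in set 2, beside 59.5% and 36.3%. In SUM159 TREAT called 1 in All gRNA and 1 in gRNA 4, CD274 in both, beside 2.3% and 2.46%, and the moderated test 7 and 6, beside 48.7% and 46.8%. CD274 of the targeted SUM159 groups was lower than in wild type of run 1 by 2.10 and 2.03.

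Over all 27 libraries the genes most like CD274 in pattern were TAF1A (Pearson r of log2 CPM 0.959), UEVLD (0.958) and KLF6 (0.957). The libraries share lines, runs and vectors, so this is a description. Among the other 9 ligands the correlation with CD274 ran from -0.603 for CD276 and -0.170 for PDCD1LG2, its neighbor, to 0.815 for CD47 and 0.855 for NT5E.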

How the data were processed

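RNA of 27 libraries was sequenced in single reads of 50 bases. The authors quantified them with Salmon (version not given in the sources used here) and deposited estimated counts per gene on GRCh38, which were used as deposited and rounded only for edgeR and DESeq2. Of 57165 gene identifiers 56347 were matched to symbols. Groups came from the sample labels.

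Per line, 12 libraries were fitted together with limma 3.58.1 (voom, TMM, R 4.3.3) after filterByExpr with a minimum count of 10. The wild type comparisons in run 2 and between runs used 6 libraries each and the interaction 24. TREAT tested against a log2 fold change of 1 and the moderated test against 0, with Benjamini-Hochberg adjusted p under 0.05 over all genes. edgeR 4.0.16, DESeq2 1.42.0, other scalings and filters, quality weights, left-out libraries, a replicate block and other controls were alternatives. The scripts were tested on simulated data.

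All 10 genes are named for the targeted groups against No gRNA, and in the other comparisons mainly those that were called. From the gene lists those called by TREAT against No gRNA are named, at most 4 per list by size, with CD14, CD68, PTPRC, EPCAM, VIM and the triple-negative markers added as markers, and for CD274 the 3 genes most like it. The genes and lists were chosen with earlier results of these data known.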

Additional observations from a re-analysis of the deposited data

Results flagged for a closer look

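For 4 of the 10 ligands and for ZEB1 the effect of silencing, as the mean of the 2 targeted groups over No gRNA, differed between the lines by the limma moderated test of the interaction, with p adjusted over all genes. Of all genes tested, 25.4% were called. The differences are SUM159 minus MDA-MB-231 on the log2 scale. NT5E differed by 0.8847 ± 0.061 (SE, adjusted p = 1.3e-09), with SUM159 libraries higher and MDA-MB-231 libraries lower than their No gRNA controls. Against wild type of its line, run 1 for SUM159, NT5E was not called in any targeted group. No gRNA was itself below wild type in SUM159 and above it in MDA-MB-231. The interaction was not repeated with wild type as the control. The difference of PVR was -0.3854 ± 0.0774 (adjusted p = 0.000874) and that of ULBP2 was -0.5951 ± 0.195 (adjusted p = 0.0299). CD47 differed by 0.3113 ± 0.0999 (adjusted p = 0.0265). With each of 18 libraries left out in turn, the call was lost in 2 cases for CD47 and in 4 for ULBP2. For PVR and ULBP2, the MDA-MB-231 mean joins unlike sets: PVR was at 1.00 in set 1 and -0.084 in set 2, and ULBP2 at 1.15 and 0.41. The difference of ZEB1 was -1.097 ± 0.234 (adjusted p = 0.00152), with ZEB1 at -6.70 in All gRNA, -4.45 in gRNA 4, -4.36 in set 1 and -4.54 in set 2 over No gRNA, so that All gRNA was the group that stood apart. ZEB1 was near the floor there, with a mean of 13.3 estimated counts. Its moderated call in All gRNA against gRNA 4 (adjusted p = 0.0165) was lost without either of 2 of the 6 libraries (adjusted p = 0.0637 and 0.0656). Line and sequencing run cannot be told apart in these differences.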

How the results depend on the processing

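Of the recomputed counts of ligands called, 389 stayed within 1.5 times the reported count and 35 moved further. Of the recomputed log2 fold changes, 1996 kept direction and call or, uncalled both times, stayed within the SE of the reported value. A further 144 lost and 21 gained a call, and 37 uncalled both times moved by more than the SE. The sign changed in 15 where the reported or the recomputed value was called, and sign changes between uncalled values were not counted. For All gRNA against No gRNA the moderated count was 1 with library totals, without the filter and with only the groups compared, and for run 2 against run 1 edgeR's TREAT count was 2. With wild type as control TREAT called 1 in All gRNA, 1 in gRNA 4 and 3 in set 1, and the moderated test 7 and 6 in the SUM159 groups. Sign changes with a call against either control were those of CD274 (-2.10), PVR (-0.20) and NECTIN2 (0.58) in All gRNA. In gRNA 4 they were CD274 (-2.03), NT5E (-0.090) and NECTIN2 (0.45), and in set 1 NECTIN2 (0.58). In set 2 they were CD274 (0.49), PDCD1LG2 (0.61), NT5E (0.025), PVR (0.83) and NECTIN2 (0.44). With wild type of run 2 in place of run 1, chosen after seeing the data, No gRNA of SUM159 had 0 called by TREAT and 3 by the moderated test. With a call against either run, CD47 (0.57), NT5E (1.07) and ULBP2 (-0.11) changed sign. The cause of these changes was not tested.

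Leaving out a library, or a replicate number in all groups, gave moderated counts of 1 to 2 in All gRNA and in gRNA 4, 1 to 6 in set 2, 4 to 7 for No gRNA of SUM159 and 2 to 5 for the interaction. The TREAT counts were then 0 to 1 for No gRNA of SUM159 and 1 to 2 for run 2 against run 1. In set 2 the count was 1 without replicate number 1. With a replicate block TREAT called 4 in place of 6 between the wild type lines and the moderated test 7 in place of 8 for No gRNA of SUM159, and the counts of the other comparisons were unchanged. No pairing of the samples by number was visible in expression. Of 36 correlations of deviations between same-numbered libraries, 0 were over 0.1, and the range was -0.065 to 0.045. The own number was highest in 16. Whether same-numbered samples were handled together cannot be read from these values. Genes near 1 CPM, MICB and LGALS9 among them, had the widest errors.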
